A study of Mus musculus with 2 samples.

Results

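The cells described here are 194 megakaryocyte-lineage cells, chosen from 10342 single cells of lineage-depleted mouse bone marrow by their transcripts of Pf4 (platelet factor 4) and Itga2b (integrin αIIb, CD41). A cell was a member when its Pf4 and Itga2b molecules together came to at least 10 of every 10000 molecules counted in it (CP10K), with Car1, an erythroid progenitor gene, under 5 CP10K and the basophil proteases Mcpt8 and Prss34 together under 20 CP10K. Only cells with less than 20% of their molecules from mitochondrial genes were considered. The rule kept 74 of 6392 cells of the hypoxia library and 120 of 3950 cells of the control library. Of the cells that met the Pf4 and Itga2b limit, 19 were left out for Car1 and 48 for the basophil proteases, with 2 cells counted under both.

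Both libraries came from the bone marrow of ICR mice aged 7 to 8 weeks, from which bead-bound lineage-positive cells had been removed. Cells were captured with BD Rhapsody, which tags each RNA molecule with a unique molecular identifier (UMI). Mice of the hypoxia group lived for 13 days in an altitude chamber held at 52.93 kPa, the pressure at 5000 m, with 19.5% oxygen in its air. Mice of the control group were killed when they reached Xining and were not kept for the same time, so hypoxia cannot be told apart from time, age or handling. There was 1 library per group, and the sources used here do not give the number of mice in each. No comparison between the groups therefore has a test, and intervals are exact 95% intervals that cover counting error only. Lineage depletion removes cells with mature blood cell markers, so the members are the megakaryocyte-lineage cells that this step and the capture left.

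Megakaryocytes are the large bone marrow cells that shed platelets. They arise from stem and progenitor cells under the hormone thrombopoietin and transcription factors such as Gata1, Fli1, Runx1 and Nfe2. As they mature they copy their DNA without dividing, fill alpha granules with chemokines and clotting proteins, build the membranes and microtubules that become proplatelets, and display the glycoproteins with which platelets bind collagen and von Willebrand factor.

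The promoter sequences of 4 platelet genes are shown because these genes differ in which members carry their transcripts. Pf4 and Ppbp (pro-platelet basic protein) encode alpha-granule chemokines and lie next to each other on chromosome 5 (GRCm38), with Pf4 at chr5:90772435-90773383 and Ppbp at chr5:90768518-90770063, both on the plus strand. Gp9 and Gp5 encode subunits of the glycoprotein Ib-IX-V receptor for von Willebrand factor. Each stretch is the 250 bases before the gene's start in RefSeq (build GRCm38.p6), written along the gene's own strand, and none overlaps an exon. They are chr5:90772185-90772434 for Pf4, chr5:90768268-90768517 for Ppbp, chr6:87777820-87778069 for Gp9 (plus strand) and chr16:30310782-30311031 for Gp5 (minus strand). Capitals mark the letters searched for on both strands, which were GATA with A or T before it and A or G after it (GATA factors), and GGAAG with A or C before it (ETS factors).
Pf4: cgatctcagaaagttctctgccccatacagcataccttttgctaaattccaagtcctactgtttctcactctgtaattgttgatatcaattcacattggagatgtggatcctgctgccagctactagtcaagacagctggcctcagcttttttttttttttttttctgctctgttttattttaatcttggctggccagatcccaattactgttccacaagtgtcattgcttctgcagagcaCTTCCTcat
Ppbp: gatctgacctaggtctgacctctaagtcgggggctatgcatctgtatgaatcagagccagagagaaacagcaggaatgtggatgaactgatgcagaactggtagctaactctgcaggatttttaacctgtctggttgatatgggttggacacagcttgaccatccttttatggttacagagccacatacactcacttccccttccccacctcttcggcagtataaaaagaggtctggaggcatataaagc
Gp9: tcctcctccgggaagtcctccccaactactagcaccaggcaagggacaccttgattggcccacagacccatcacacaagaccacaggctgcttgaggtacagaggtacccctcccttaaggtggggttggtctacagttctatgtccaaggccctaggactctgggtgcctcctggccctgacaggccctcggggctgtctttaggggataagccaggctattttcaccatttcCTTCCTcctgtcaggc
Gp5: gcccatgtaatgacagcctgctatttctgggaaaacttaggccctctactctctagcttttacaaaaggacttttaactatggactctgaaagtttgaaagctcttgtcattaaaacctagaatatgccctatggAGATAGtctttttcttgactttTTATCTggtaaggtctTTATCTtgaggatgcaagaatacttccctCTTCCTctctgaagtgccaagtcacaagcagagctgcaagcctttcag
The Gp5 stretch held 3 GATA matches and 1 ETS match, Pf4 and Gp9 held 1 ETS match each close to the start, and Ppbp held neither. No GATA match shared a base with an ETS match. Among 32851 stretches of the same length before RefSeq gene starts, 26.5% held a GATA match, 39.2% an ETS match and 9.21% both. A match is a run of letters and no evidence of binding, and none of the files measured binding.

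Members carried Pf4 at 9578 of every 1000000 UMIs (CPM, summed over the members of a library) in hypoxia and 9331 CPM in control, against 8.68 and 13.5 CPM in all other cells. These are values the choice used and only describe it. The cells nearest the limit had 10.2, 10.8 and 11.3 CP10K of Pf4 and Itga2b inside it and 9.80, 9.78 and 9.23 CP10K outside it in hypoxia. In control they had 10.1, 10.2 and 11.1 CP10K inside and 9.73, 8.97 and 8.91 CP10K outside. The median member stood far above the limit, at 51.9 CP10K in hypoxia and 59.5 CP10K in control.

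Gp9 and Cd9, markers of the lineage that the choice did not use, were carried by many but not all members. Gp9 was detected in 37 of 74 hypoxia members (50%, 38.1% to 61.9%) and 67 of 120 control members (55.8%), against 1.42% and 1.02% of granulocyte-monocyte cells outside the members, which should lack it. Cd9, a tetraspanin of the platelet membrane that other blood cells also carry, was detected in 68 of 74 and 109 of 120 members. It was also detected in 39.7% and 46.9% of granulocyte-monocyte cells outside the members, so its detection sets the members apart less than that of Gp9. Pf4 itself had a UMI in 5.02% and 6.14% of granulocyte-monocyte cells (median 20969 and 23531 UMIs per cell), which is the background level for a detected share. After each cell was thinned to 5000 UMIs, Pf4 was found in 98.2% of 56 hypoxia and 95.6% of 90 control members deep enough for it, and in 1.29% and 2.06% of granulocyte-monocyte cells. Since Pf4 chose the members, its share among them only describes the choice. Gp9 was found in 21.4% and 31.1% of the same thinned members, and in 0.551% and 0% of the thinned granulocyte-monocyte cells. The 18 hypoxia and 30 control members below 5000 UMIs were left out of the thinned counts.

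The 20 genes that stood highest in members over all other cells were mostly platelet genes, Itga2b and Pf4 aside. Among them, in order, were Ppbp, Timp3, Cavin2, Treml1, Itgb3, Nrgn, Cd9, Plek, Thbs1, Clec1b, Rab27b, Gng11, F2rl2, Gp5, Rbpms2, Alox12, Clu and Serpina3g. Ppbp was at 5525 CPM in hypoxia members against 4.22 CPM in other cells, and at 4232 against 6.22 CPM in control. Timp3, an inhibitor of matrix metalloproteases, was at 802 against 0.92 CPM and 945 against 2.71 CPM, and Serpina3g, last of the 20, at 580 against 8.53 CPM and 700.4 against 19.3 CPM. Since Pf4 and Itga2b chose the cells, these levels are a description of the group and not a test of its identity.

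A few members went against the label. No Pf4 UMI was found in 7 hypoxia and 15 control members, which qualified through Itga2b alone and were shallow, with a median of 1958 and 3091 UMIs per cell. Of the 7 hypoxia cells, 5 carried eosinophil genes (Prg2, Epx, Ear1 and others) at 50 CP10K or more, up to 2272 CP10K, as did 1 of the 15 control cells. Basophil and mast cell genes reached 50 CP10K in 3 of the 7 and 9 of the 15. Gp9 was at 0 CPM in the former and 19.7 CPM in the latter. The 13 platelet genes described later summed to at least 5 CP10K in 1 of the 7 and 9 of the 15 cells, and to 50 CP10K or more in 4 of the 15. These cells are members by the rule, some with platelet genes and some with genes of other lineages, and values without them are given beside the results they touch most.

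Library depth differed. The tables held 6406 hypoxia and 3956 control cells, of which 14 and 6 were over the mitochondrial limit. Members had a median of 16567.5 UMIs and 4614.5 genes per cell in hypoxia and of 17409.5 UMIs and 4200.5 genes in control, while other cells had 21603 and 32627 UMIs. A doublet caller (Scrublet) marked 1.75% and 0.911% of all cells and no member. The 2 libraries shared 23 cell indices, none of them a member's.

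**Figure D1:**
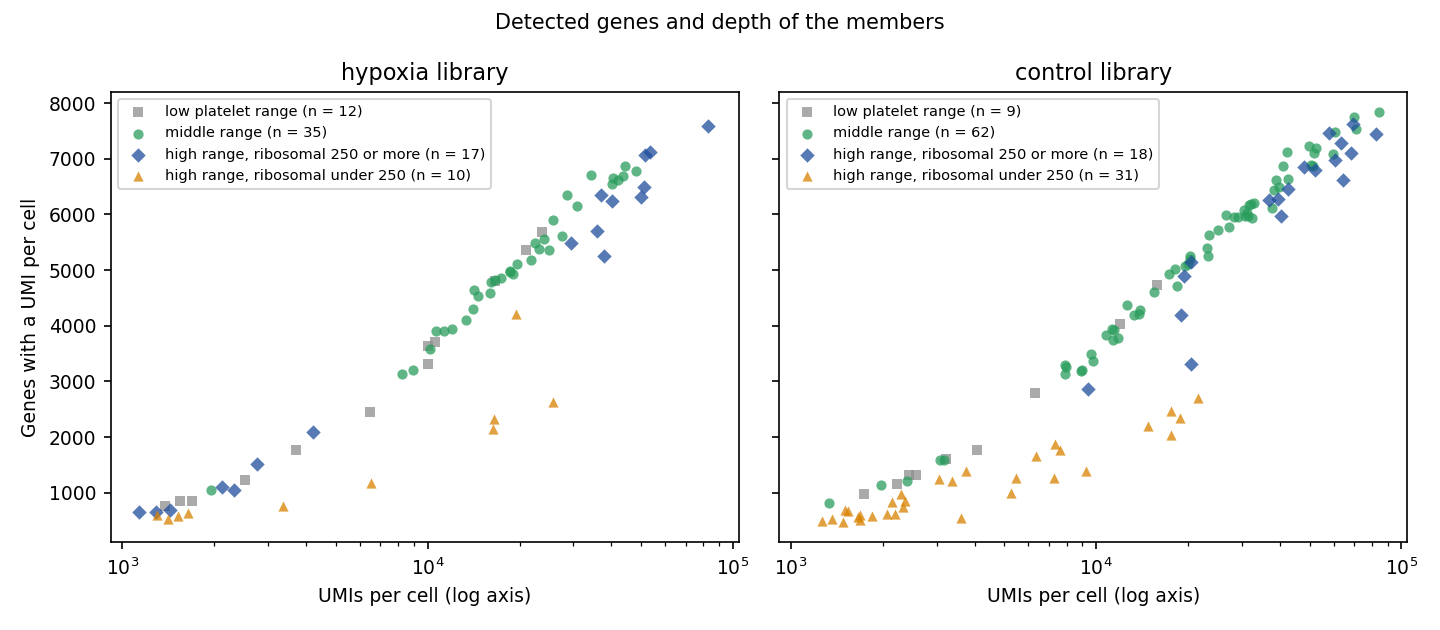
Molecules (UMIs, log axis) against detected genes in each member cell, with the hypoxia library on the left and the control library on the right. Members with ribosomal protein transcripts under 250 CP10K have a median of 972 genes in hypoxia and 970.0 genes in control and most lie under the other members of the same depth.

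Members made up 1.16% of cells in the hypoxia library (0.910% to 1.45%) and 3.04% in the control library (2.53% to 3.62%), a ratio of 0.381 (0.281 to 0.513). Leaving out members without Pf4 gave 0.394 (0.286 to 0.541). The interval holds the counting of cells alone, and with 1 library per group the spread between mice or between captures is unknown. A share also depends on how many other cells a library holds, so fewer megakaryocyte-lineage cells and more of the other cells cannot be told apart.

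To order the members, 13 platelet genes that the choice did not use were summed in each cell. They were the von Willebrand factor receptor genes Gp1ba, Gp1bb, Gp5 and Gp9, the collagen receptor Gp6, the podoplanin receptor Clec1b, Treml1, Mpig6b, the thrombin receptor F2rl2, Itgb3, the partner of Itga2b, and Ppbp, Vwf and Tubb1, the platelet tubulin. Under 5 CP10K lay 12 hypoxia and 9 control members (low range), between 5 and 50 CP10K lay 35 and 62 (middle range), and 27 and 49 reached 50 CP10K or more (high range). The high range held 36.5% of hypoxia members (25.6% to 48.5%) and 40.8% of control members (32.0% to 50.2%), intervals that overlap widely. The low range held 16.2% and 7.5%, and 6 of its 12 hypoxia cells and 6 of its 9 control cells had no Pf4 UMI. Eosinophil genes reached 50 CP10K in 5 of the 12 and 1 of the 9. Ranges of a sum are not cell types, and the sums ran without a gap from one range into the next.

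**Figure D2:**
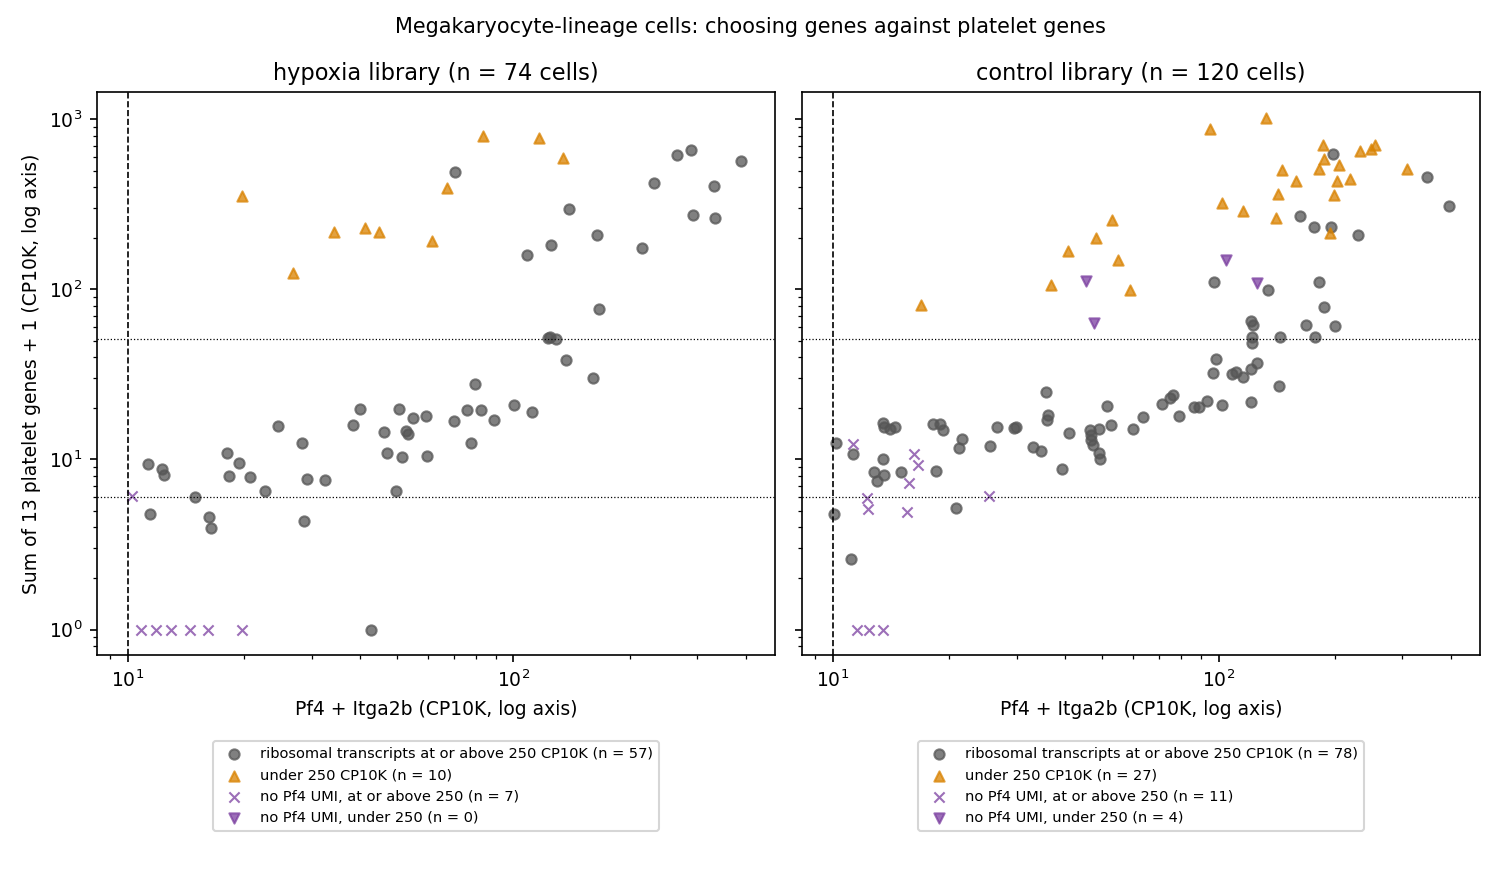
Each member by its Pf4 and Itga2b sum (horizontal, CP10K, log axis) and its sum of 13 platelet genes plus 1 (vertical, CP10K, log axis), with the hypoxia library on the left and the control library on the right. Marker shape and colour give the ribosomal class and whether a Pf4 UMI was found, the dashed line is the membership limit of 10 CP10K, and dotted lines mark the ranges at 5 and 50 CP10K. Every cell with few ribosomal transcripts lies in the high range.

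Pf4 and Ppbp, neighbours on chromosome 5, are described side by side, with no test, since Pf4 chose the cells and Ppbp helped to define the ranges. Pf4 was carried by 34 of 35 hypoxia and 57 of 62 control members of the middle range, at 6040 CPM (median cell 43.2 CP10K) and 6119 CPM (median cell 28.5 CP10K). Ppbp in those cells was found in 16 of 35 and 20 of 62, at 82.9 CPM (64.0 to 106) and 179 CPM, with a median of 0 and a highest cell of 4.96 and 14.9 CP10K. In members of the high range with abundant ribosomal transcripts, Ppbp stood at 14712 CPM in hypoxia (17 of 17 cells, 16.5 to 551 CP10K, median 203) and 9115 CPM in control (18 of 18 cells, 9.44 to 476 CP10K, median 52.0). Pf4 in the same cells stood at 18430 and 16686 CPM. The next genes of the same chemokine cluster had few or no UMIs in members, with 2 and 18 for Cxcl3 and none for Cxcl15, Cxcl1 or Cxcl2. Cxcl5, on the other side of Ppbp, was present at 105 and 49.0 CPM.

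Genes outside the 13 also separated the high from the middle range among members with abundant ribosomal transcripts. Of 4530 genes with enough molecules, 141 were at least 2-fold higher in the high range in both libraries and 107 at least 2-fold lower. The 141 are not all outside the 13, since Ppbp, Clec1b, Gp6, Mpig6b and Gp1ba, which helped to define the range, are among them. Those higher included cytoskeletal genes of proplatelet formation and contraction, Myl9 (myosin light chain; 165 and 207 CPM against 0 in both libraries), Cald1 (caldesmon), Tgfb1i1, Parvb and Tpm4, as well as Timp3 (2104 against 195 CPM in hypoxia, 2480 against 318 CPM in control) and Alox12, the platelet lipoxygenase (332 against 16.6 CPM, 470 against 27.5 CPM). Those lower included progenitor genes. The transcription factor Myb was at 16.5 against 232 CPM and 32.0 against 247 CPM, the stem cell factor receptor Kit at 8.25 against 107 CPM and 4.92 against 50.2 CPM, and the cyclin-dependent kinase Cdk6 at 55.7 against 606 CPM and 60.2 against 631 CPM. Gata2, which precedes Gata1 in the lineage, was at 63.9 against 313 CPM and 51.6 against 358 CPM. Depth differed too, with medians of 35752 and 45220.5 UMIs per cell in the high range against 19076 and 23351.5 in the middle range, and its part in these differences was not tested.

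A separate set of members held few ribosomal protein transcripts. Summed over 83 ribosomal protein genes, 10 hypoxia members (13.5%, 6.68% to 23.5%) and 31 control members (25.8%, 18.3% to 34.6%) had under 250 CP10K, while the median member had 1217 and 1073 CP10K. No member lay between 198 and 379 CP10K in hypoxia or between 206 and 317 CP10K in control. Only 1.54% and 1.75% of other cells were under the limit. All 41 of these members were in the high platelet range, though no ribosomal gene was used to define it. They were shallow, with a median of 4935 and 3047 UMIs, and of the control cells 4 had no Pf4 UMI. In 6 of the control cells, all 4 without Pf4 among them, the nuclear RNA Malat1 was at 200 CP10K or more. No hypoxia cell of this set reached that level.

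Several platelet genes stood higher in the ribosomal-poor members than in the others, and are given as a description chosen after their values were seen. Not every platelet gene did. Pf4 was at 2815 CPM in hypoxia and 8404 CPM in control, below the 18430 and 16686 CPM of the other high-range members. In the middle range Pf4 was at 6040 and 6119 CPM. P2ry12, the platelet ADP receptor, was at 970 CPM in hypoxia (10 of 10 cells) and 1311 CPM in control (23 of 31 cells), against 1.45 and 5.92 CPM in the other members. Slc6a4, the serotonin transporter through which platelets take up serotonin, was at 1568 against 34.1 CPM and 1383 against 23.3 CPM. Myl9 reached 1994 and 2861 CPM and Clec1b, which is among the 13 genes, 4063 and 3816 CPM. Alox12 was at 2442 and 2816 CPM, and was also present in the other high-range members, at 332 and 470 CPM. The transcription regulator Tsc22d1 was at 28408 against 269 CPM in hypoxia and 18135 against 487 CPM in control. The actin-binding Tmsb4x, at 51900 and 53617 CPM, was abundant in every set, with 23432 and 18127 CPM in the other high-range members and 11848 and 9382 CPM in the middle range. The imprinted gene Mest was at 2911 and 1144 CPM but came from 4 of 10 and 12 of 31 cells. Of 5044 genes, 526 were at least 2-fold higher than in the other members in both libraries and 2765 at least 2-fold lower, ribosomal genes among them. The ribosomal-poor members held 93776 and 180038 UMIs in all, against 1378000 and 2535423 in the others. A gene with few UMIs can therefore count as lower when only a few are missing.

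Other transcripts were sparse in the ribosomal-poor members. Timp3, high in the other high-range members, was at 53.3 and 106 CPM, and Serpina3g, at 705 and 872 CPM in the middle range, had no UMI in any of the 41 cells. Kit and the mitotic kinase Cdk1 also had none. The whole list of stem and progenitor genes, which holds Kit, went the other way. It reached 50 CP10K in 9 of 10 and 28 of 31 ribosomal-poor members (median 110 and 103 CP10K) and in none of 64 and 1 of 89 others (median 10.1 and 10.2 CP10K). Nearly all of it was Ctla2a, at 9587 and 9737 CPM against 330.2 and 518 CPM in the others. The basophil and mast cell list reached 50 CP10K in 6 of 10 and 20 of 31, against 3 of 64 and 11 of 89, and nearly all of it was Srgn, at 6484 and 6865 CPM. Lmo2, a partner of Tal1 in blood transcription complexes, was at 0 and 5.55 CPM against 519 and 388 CPM in the other members. Gata2 was at 746 and 878 CPM, above the middle range, and came from 7 of 10 and 21 of 31 cells.

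**Figure D3:**
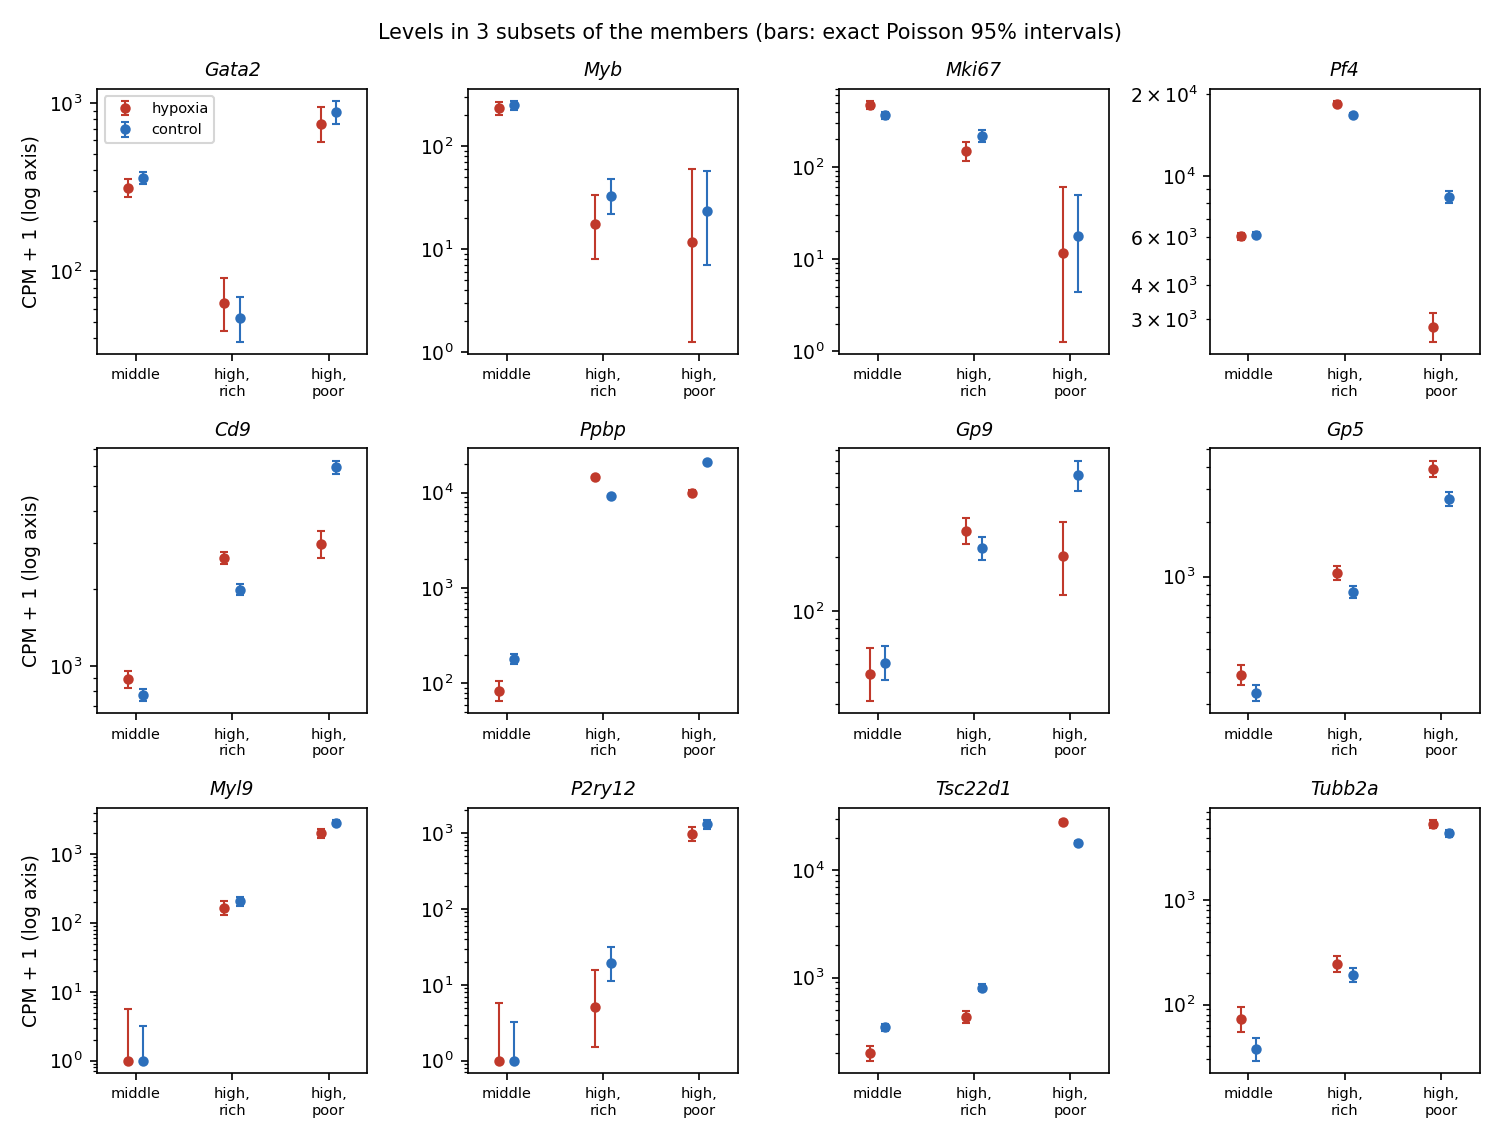
Expression (CPM plus 1, log axis) of 12 genes in 3 sets of members, the middle range, the high range with abundant ribosomal transcripts and the ribosomal-poor members, with 1 point per library (red hypoxia, blue control) and exact Poisson 95% intervals. Ppbp stands far higher in the high range than in the middle range, and P2ry12, Myl9 and Tsc22d1 are highest in the ribosomal-poor members in both libraries.

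Cell cycle transcripts were spread unevenly over these sets. A sum of 29 G2/M genes (Mki67, Top2a, Cdk1 and others) reached 50 CP10K in 19 of 35 hypoxia members of the middle range (54.3%, 36.6% to 71.2%) and 28 of 62 control members (45.2%, 32.5% to 58.3%). In the high range with abundant ribosomal transcripts it did so in 7 of 17 (41.2%, 18.4% to 67.1%) and 9 of 18 (50%, 26.0% to 74.0%). None of the 10 and none of the 31 ribosomal-poor members reached it, which allows a share of up to 30.0% and 9.68% when 3 cells are taken as the limit, while the exact intervals reach 30.8% and 11.2%. G2/M transcripts were therefore present in many members that carried Ppbp, and the hypoxia and control intervals overlapped in both ranges. A sum of 30 S phase genes reached 50 CP10K in 5 of 35 and 15 of 62 members of the middle range. At unequal depth such shares are not strictly comparable, and no phase was assigned to a cell.

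The share of library cells in each set was also compared, as the ratio of hypoxia to control. The ratio was 0.824 (0.319 to 2.21) for the low range, 0.349 (0.224 to 0.536) for the middle range and 0.341 (0.205 to 0.556) for the high range. The low range includes the 5 hypoxia and 1 control cells with eosinophil genes, and its ratio was not computed without them. For the ribosomal-poor members it was 0.199 (0.0872 to 0.417) and for the others 0.444 (0.317 to 0.620). Members with Pf4 and abundant ribosomal transcripts, 57 and 78 cells, gave 0.452 (0.315 to 0.644). Each of these ratios other than that of the low range had an interval below 1, but the intervals of the 3 ranges overlapped one another, as did those of the ribosomal-poor and the other members.

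Gene expression was compared between hypoxia and control members on summed UMIs, as log2 of the ratio of CPM after 10 CPM was added to each, and a gene was counted as higher or lower from 1.5-fold on that scale. At least 50 UMIs in the 2 libraries together were required of a gene. Of 8048 such genes, 268 (3.33%) were higher in hypoxia and 249 (3.09%) were lower, with a median log2 ratio of 0.02. Among ribosomal-rich members with Pf4, 247 of 7793 genes (3.17%) were higher and 237 (3.04%) lower. In all other cells of the libraries 384 of 14020 (2.74%) were higher and 152 (1.08%) lower. These are counts of a size in 1 library per group, and the counts in each gene list for the same cells are read against them.

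**Figure D4:**
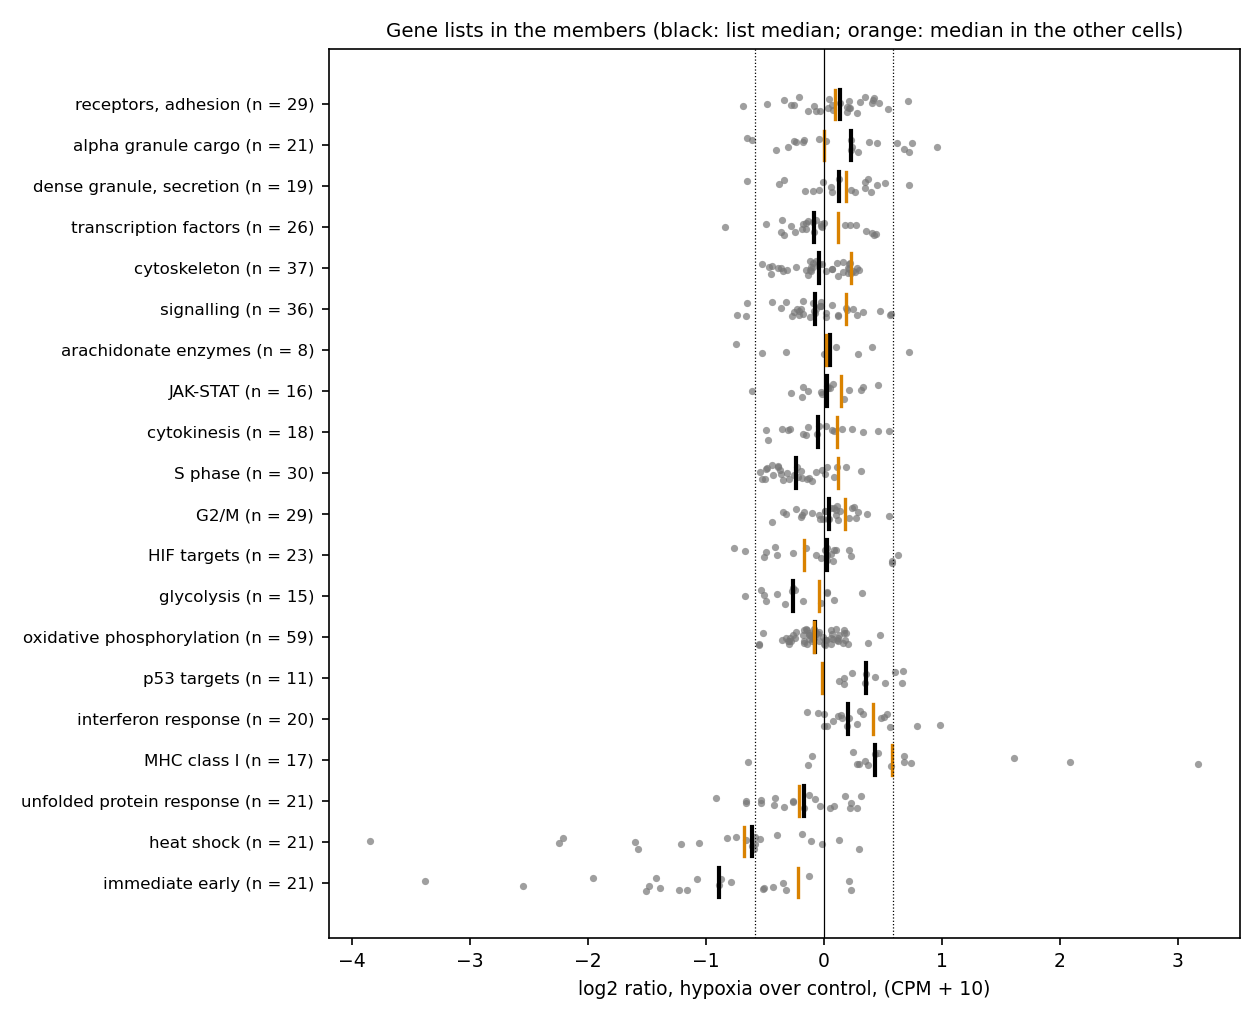
Log2 ratios of hypoxia over control members for the genes of each list, with 1 point per gene, the list's median in black, its median in the other cells in orange, and dotted lines at 1.5-fold. The medians of the heat-shock list (-0.61) and the immediate early list (-0.88) lie lowest, that of MHC class I (0.43) lies above 0, and those of the megakaryocyte lists lie near 0.

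Nearly all surface receptors of platelets were within 1.5-fold between hypoxia and control members. Of 29 receptor genes outside the choice with enough UMIs, 1 was higher and 1 lower, with a median log2 ratio of 0.14. P2ry1, the second platelet ADP receptor, was at 177 CPM in hypoxia (0 to 30.8 CP10K, median 1.27) and 291 CPM in control (0 to 21.8 CP10K, median 2.42), a ratio of 0.607 (0.526 to 0.699), and the cells' values overlapped. Cd226, an adhesion receptor, was at 215 and 127 CPM, a ratio of 1.69 (1.45 to 1.97). For Cd226 1 cell held 26.2% of the hypoxia UMIs, and among ribosomal-rich members with Pf4 its log2 ratio was 0.36. The von Willebrand factor receptor subunits gave 412 against 279 CPM for Gp1ba (log2 0.54), 752 against 566 CPM for Gp5 (0.40), 129.8 against 136 CPM for Gp9 (-0.07) and 25.8 against 24.7 CPM for Gp1bb (0.05). Itgb3 was at 879 and 968 CPM (-0.14), Gp6 at 202 and 192 CPM (0.07) and Cd9 at 1548 and 1464 CPM (0.08). None of these 7 reached 1.5-fold, nor did any of the 13 platelet genes used for the ranges (median 0.05). Itga2b, which chose the cells, was at 772 and 1328 CPM, and in ribosomal-rich members with Pf4 at 693 and 1129 CPM, a ratio of 0.613 (0.569 to 0.661) that is given as a description.

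Among alpha-granule genes, 5 of 21 were higher and 2 lower, with a median log2 ratio of 0.23. The growth factor Angpt1 (angiopoietin-1) was at 418 CPM in hypoxia (0 to 17.1 CP10K, median 3.63) and 244.5 CPM in control (0 to 9.72 CP10K, median 1.89), a ratio of 1.71 (1.53 to 1.91). It was found in 61 of 74 and 92 of 120 cells, and in other cells of the libraries it was at 38.8 and 18.0 CPM, also higher in hypoxia. Cxcl5, a chemokine, was at 105 CPM in 25 hypoxia cells and 49.0 CPM in 40 control cells, a ratio of 2.14 (1.68 to 2.71), and 112 against 50.8 CPM among ribosomal-rich members with Pf4. Both were thus higher in hypoxia with and without the doubtful cells, although single cells overlapped. Tgfb1 was at 99.9 against 56.7 CPM (log2 0.72). Thbs1 (thrombospondin-1) was at 600.0 against 387 CPM (0.62) and Pdgfa at 36.7 against 19.2 CPM (0.68), but without the ribosomal-poor cells and those lacking Pf4 their log2 ratios were -0.066 and -0.01. The clotting factor F5 was at 185 against 297 CPM (ratio 0.624, 0.542 to 0.717) and Nbeal2, needed for alpha granules to form, at 25.8 against 44.6 CPM (-0.61, and -0.33 without those cells). Ppbp was at 5525 and 4232 CPM (0.38), and at 5297 and 3084 CPM (0.78) without those cells. Of the members then left, 17 of 57 in hypoxia and 18 of 78 in control were of the high range. The direction of Ppbp turned elsewhere, to 82.9 against 179 CPM in the middle range and 9960 against 20990 CPM in the ribosomal-poor members. After each cell was thinned to 5000 UMIs, Ppbp was at 3543 against 4740 CPM in the members deep enough. When members were chosen again from the thinned cells, its log2 ratio was -0.59. Vwf was at 207 and 258 CPM (-0.30).

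Dense-granule, cytoskeletal and signalling genes were mostly within 1.5-fold. In the dense-granule list 1 of 19 was higher and 1 lower, Abcc4, a nucleotide transporter, at 33.3 against 16.2 CPM (log2 0.72) and Stx11, a syntaxin of platelet secretion, at 137 against 220.2 CPM (-0.65, and -0.18 without ribosomal-poor and Pf4-negative cells). Slc18a2, the monoamine transporter of the granule, was at 107 and 102 CPM (0.06). None of 37 cytoskeletal genes was higher or lower, Tubb1 included at 21.7 and 16.2 CPM (0.28), and their median was -0.04 while that of other cells was 0.23. Of 36 signalling genes 3 were lower, the G protein subunits Gnaz (179 against 304 CPM, ratio 0.588, 0.510 to 0.677) and Gng11 (396 against 630.5 CPM) and the phosphodiesterase Pde3a (94.4 against 154 CPM). For Gng11 the log2 ratio went from -0.66 to -0.41 without those cells. In the arachidonate list 1 of 8 was lower and 1 higher. Ptgs1, the cyclooxygenase that aspirin blocks, was at 150.2 against 259 CPM (ratio 0.580, 0.496 to 0.676) and Alox5, a lipoxygenase of leukotriene synthesis, at 48.9 against 25.8 CPM (0.72). Alox5 was higher by about as much in the other cells of the libraries, at 47.1 against 22.9 CPM.

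Transcription factors and the thrombopoietin pathway showed few differences of this size. Of 26 transcription factors of the lineage 1 was lower and none higher, with a median of -0.09 against 0.12 in other cells. That gene was Cbfa2t3 (Eto2), a corepressor in Gata1 complexes, at 175 CPM in hypoxia (0 to 26.4 CP10K, median 1.19) and 321 CPM in control (0 to 69.8 CP10K, median 2.61), a ratio of 0.544 (0.472 to 0.626). It was at 146 and 320 CPM without the doubtful cells, and at 144 and 210.4 CPM in other cells. Gata1 was at 354 and 292 CPM (0.27, and -0.15 without those cells), Gata2 at 270 and 328 CPM (-0.28), Fli1 at 438 and 556 CPM (-0.34) and Runx1 at 223 and 222 CPM (0.00). Nfe2, which drives platelet release, was at 364 and 265 CPM (0.45), and Gfi1b and Zfpm1 were at -0.36 each. Among ribosomal-rich members with Pf4, Gfi1b was at -0.56 and Zfpm1 at -0.38. Meis1 (-0.09) and Myb (-0.02) were close to equal. Of 16 genes of the thrombopoietin and JAK-STAT pathway only Stat3 passed, at 101 against 159 CPM (-0.61).

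Over all members the S phase, G2/M and cytokinesis lists held no gene at 1.5-fold, but within the ranges some of their genes passed. Of 30 S phase genes none was higher or lower, and their median was -0.24 while in other cells it was 0.12. The 29 G2/M genes had a median of 0.04 and the 18 cytokinesis genes of -0.05. In the middle range 3 of 29 G2/M genes (median 0.23) and 3 of 18 cytokinesis genes (median 0.01) were higher in hypoxia, and 4 of 29 S phase genes were lower (median -0.34). In the high range with abundant ribosomal transcripts 8 of 25 G2/M genes (median -0.39) and 5 of 14 cytokinesis genes (median -0.48) were lower and none higher. There 2 of 24 S phase genes were higher and 3 lower. These sets hold 35 and 62 cells and 17 and 18 cells, and the difference between the ranges was not tested. The share of all genes past 1.5-fold was not counted within these sets, so their list counts have no background to be read against. Of 12 cyclins, their kinases and inhibitors 1 was higher and 1 lower. Cdkn1a (p21) was at 40.1 against 21.7 CPM (0.66) with 39.0% of its hypoxia UMIs in 1 cell, and Cdkn2c (p18) at 12.9 against 32.4 CPM (-0.89).

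**Figure D5:**
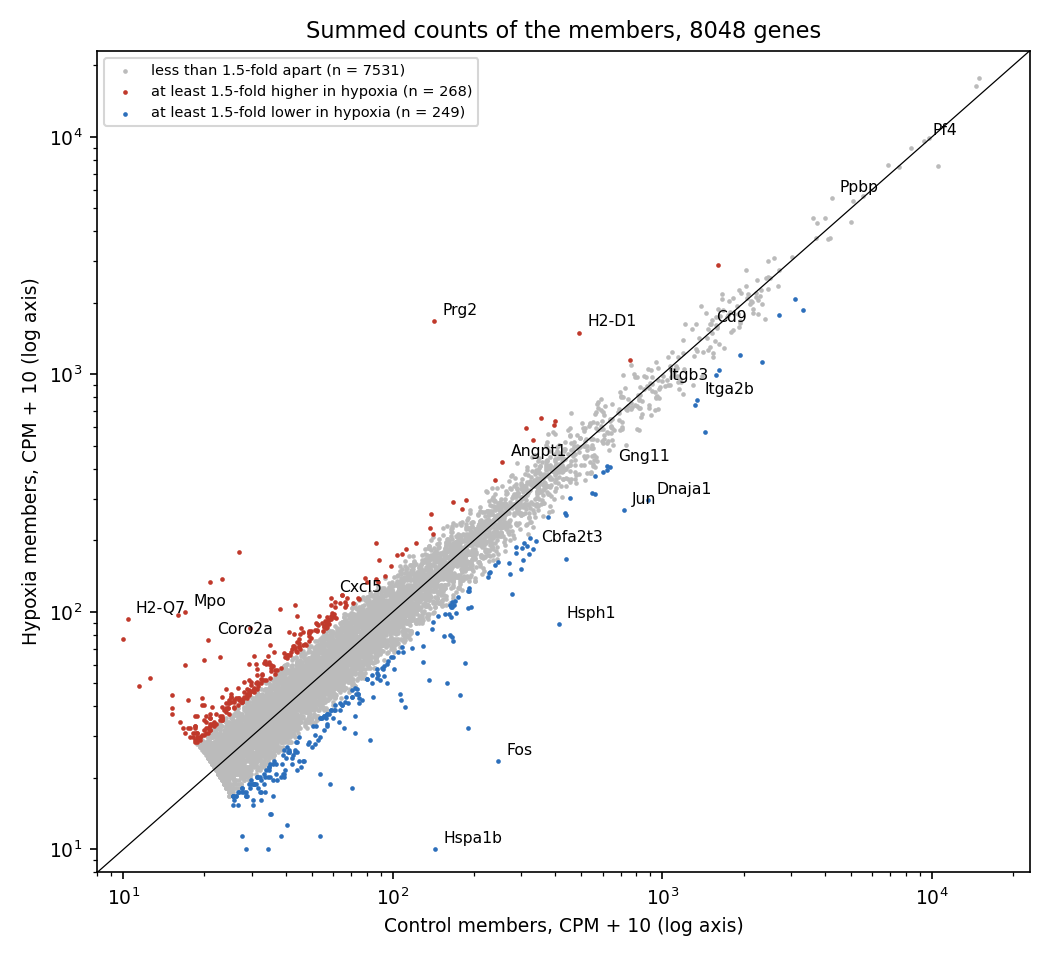
CPM plus 10 in control members (horizontal, log axis) against hypoxia members (vertical, log axis), with 1 point per gene, the line of equal levels, and genes at least 1.5-fold higher in hypoxia in red and lower in blue. H2-D1, Angpt1 and Cxcl5 are among the higher genes, and Fos, Hsph1, Dnaja1 and Jun among the lower.

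Most immediate early genes tested were lower in hypoxia members. Of 21, 13 were lower and none higher, with a median log2 ratio of -0.88, and 12 of 19 were lower among ribosomal-rich members with Pf4. Fos, which forms AP-1 with Jun, stood at 13.6 CPM in hypoxia (12 of 74 cells, highest 27.6 CP10K) and 235 CPM in control (41 of 120 cells, highest 62.3 CP10K), a ratio of 0.0577 (0.0350 to 0.0899). Most cells of either library had no Fos UMI, so the medians were 0 in both. Jun was at 258 CPM (0 to 35.5 CP10K, median 0.332) against 708 CPM (0 to 113 CP10K, median 2.53), a ratio of 0.365 (0.326 to 0.407). Fosb was at 22.4 against 180.1 CPM, Egr1 at 8.15 against 60.4 CPM and Btg2 at 29.9 against 101 CPM.

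The Fos transcripts of the control library lay mostly in the middle range, at 366 CPM in 34 of 62 cells, against 7.65 CPM in 5 of 35 hypoxia cells of that range. In the high range with abundant ribosomal transcripts Fos was at 12.3 and 2.06 CPM, with 1 cell each. Other cells of the libraries differed less, with log2 ratios of -0.37 for Fos, 0.02 for Fosb and -0.32 for Jun, and with 3 of 21 genes of the list lower. These genes are also known to respond to cell dissociation, and hypoxia and handling cannot be told apart here.

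Most heat-shock genes were lower in hypoxia as well, both in members and in other cells. Of 21 genes 12 were lower and none higher (median -0.61), and in other cells 15 were lower (median -0.68). Hsph1, a nucleotide exchange factor for Hsp70, was at 78.8 CPM (0 to 3.76 CP10K, median 0.451) against 402 CPM (0 to 16.6 CP10K, median 1.82), a ratio of 0.196 (0.161 to 0.238), and had a log2 ratio of -2.21 in members and -2.30 in other cells. The co-chaperone Dnaja1 was at 285 against 873 CPM (-1.58) and Hspa4l at 51.0 against 175 CPM (-1.60). The inducible Hspa1b had no UMI in hypoxia members and 363 in control members, at least 65.6-fold lower when 3 UMIs are taken as the floor over the group. Hspa1b and Hspa1a are near-identical copies, and how reads were divided between them is uncertain. In the middle range alone 10 of 21 heat-shock genes and 14 of 19 immediate early genes were lower. The share of all genes past 1.5-fold was not counted for that range.

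Some MHC class I genes, which present peptides to T cells, were higher in hypoxia members. Of the 17 tested, 6 were higher, 1 lower and 10 between (median 0.43), against a median of 0.58 in other cells. H2-D1 was at 1489 CPM in hypoxia (0 to 117 CP10K, median 14.1) and 481 CPM in control (0 to 41.5 CP10K, median 4.79), a ratio of 3.10 (2.89 to 3.32), and was found in 70 of 74 and 107 of 120 cells. The difference appeared in each set of members, with 1390 against 468 CPM in the middle range, 1430 against 477 CPM in the high range with abundant ribosomal transcripts and 2399 against 672 CPM in the ribosomal-poor cells. In other cells H2-D1 was at 1167 and 267 CPM. H2-K1 was at 628 against 389 CPM (0.68) and B2m, the shared light chain, at 1620 against 1198 CPM (0.43). H2-Q7 had 123 UMIs in hypoxia and 1 in control, a ratio of 227 (40.0 to 9036). H2 genes are near-identical and polymorphic, and ICR mice are outbred, so genotype and the division of reads between copies cannot be told apart from expression. Interferon response genes, which often move with MHC class I, had 2 of 20 higher, none lower and a median of 0.20, and the highest, Ifit1, rested on 4 hypoxia cells.

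Genes known to respond to low oxygen were neither higher nor lower as a group. Of 23 genes that respond to hypoxia-inducible factor 1 was higher, the lactate transporter Slc16a3 (36.7 against 20.3 CPM, with 50% of its hypoxia UMIs in 1 cell), and 2 were lower, P4ha1 (23.8 against 47.1 CPM) and Pfkl (28.5 against 51.2 CPM), with a median of 0.02. Vegfa was at 48.2 and 39.8 CPM, Ldha at 859 and 844 CPM, Pgk1 at 440 and 413 CPM and Bnip3 at 14.3 and 13.3 CPM. Of 15 glycolysis genes 1 was lower, and their median was -0.26 against -0.04 in other cells. None of 59 nuclear genes of oxidative phosphorylation was higher or lower. Among 21 genes of the unfolded protein response 3 were lower, the lowest being Sdf2l1 at 134.5 against 263 CPM (-0.92). Of 11 p53 target genes 3 were higher (median 0.35), and among ribosomal-rich members with Pf4 1 of 9.

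The other genes with the highest ratios under the naming rule were Gm10320, a predicted gene (123 against 11.1 CPM, 11.1-fold, 7.53 to 17.0), Coro2a, a coronin of the actin cytoskeleton (65.9 against 10.7 CPM), the carboxylesterase Ces2g (53 against 9.94 CPM), Cd24a (54.4 against 12.9 CPM), 5033406O09Rik (86.3 against 34.2 CPM), Ppp2cb, a catalytic subunit of protein phosphatase 2A (55.0 against 20.6 CPM), Frmd6 (50.3 against 19.2 CPM), Cavin3 (50.3 against 21.0 CPM) and Trim12c (55.0 against 24.3 CPM). Gm10320, Coro2a and Trim12c were higher in other cells too, with log2 ratios of 2.48, 1.62 and 0.97. In those cells 5033406O09Rik, Cd24a and Ces2g had log2 ratios of 0.52, 0.45 and 0.44, and Ppp2cb had 0.07. Frmd6 (0.14) and Cavin3 (0.00) cannot be judged there. Both genes and 5033406O09Rik were under 10 CPM in other cells of each library, so the 10 CPM added pulls their log2 ratios towards 0. Cd24a (1527 and 1118 CPM) and Ces2g (617 and 452 CPM) were far more abundant in other cells than in members. The difference between members and other cells was not tested. Among the lowest were Cwc22, a splicing factor (34.7 against 168 CPM, and -1.82 in other cells), the noncoding RNA Bc1 (19.0 against 72.5 CPM) and the chemokine Ccl3 (40.1 against 149 CPM). Ccl3 came from 8 and 10 cells and was at 4.42 and 5.60 CPM among ribosomal-rich members with Pf4.

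Markers of other blood and marrow cells were checked in the members as whole lists. The eosinophil list summed to 1955 CPM in hypoxia and 154 CPM in control, with all 4 tested genes higher, and it reached 50 CP10K in the 5 and 1 cells without Pf4 named earlier. Prg2 was at 1671 against 133 CPM, and at 12.5 against 2.4 CPM among ribosomal-rich members with Pf4. Granulocyte-monocyte progenitor genes were higher in 4 of 9 cases (median 0.49), with Mpo at 89.7 against 7.00 CPM and 62.9% of its hypoxia UMIs in 1 cell. Among ribosomal-rich members with Pf4, 4 of 7 of these genes were higher and 1 lower (median 1.36), with Mpo at 86.8 against 5.60 CPM. Stem and progenitor genes were higher in 3 of 12 cases and lower in 1, with Kit at 75.4 against 35.7 CPM (ratio 2.11, 1.59 to 2.80) and Mycn at 123 against 70.3 CPM. Kit was at 107 against 50.2 CPM within the middle range, so its difference was as large there. Erythroid genes were higher in 3 of 9 cases, with 73.0% of the hypoxia UMIs of Hba-a1, 1 of 2 near-identical globin genes, in 1 cell. The neutrophil list stayed at 14.3 and 8.10 CPM and at most 13.9 and 9.36 CP10K in a cell, with Ltf, Mmp8, Mmp9, Fcnb and Ly6g at 0. Lymphoid genes summed to 202 and 139 CPM with Cd79a, Ms4a1 and Cd3e at 0, and no cell reached 50 CP10K. Of 3 tested 1 was higher, Nkg7 at 128 against 68.5 CPM. Stromal genes stayed at 29.9 and 34.6 CPM with Cxcl12, Dcn and Lum at 0, macrophage genes at 40.8 and 36.5 CPM and endothelial genes at 410 and 383 CPM, of which Pecam1 is also a platelet gene. Basophil genes reached 50 CP10K in 9 and 31 cells, with 1 of 7 genes higher and 3 lower, and the list includes Srgn, a granule proteoglycan that is also an alpha-granule gene. Only 1 of 12 stromal and 5 of 12 endothelial genes had enough UMIs, and none of these was past 1.5-fold. The only macrophage gene with enough UMIs, Vcam1, was higher (22.4 against 7.37 CPM) with 42.4% of its hypoxia UMIs in 1 cell. The part of the eosinophil-gene cells and of single cells in the lists above was not tested beyond the values given without them.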

How the data were processed

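Single-cell RNA of lineage-depleted bone marrow was read as 1 table per library, hypoxia and control. The deposited values are whole-number counts of UMIs for each cell and gene, corrected for sequence errors by the pipeline (RSEC), with no normalization. Per the file headers, the authors ran the BD WTA Rhapsody Analysis Pipeline 1.7.1, with GRCm38 as genome and GENCODE vM19 as annotation. The submitters' processing notes also name Bowtie2. The cell calling step is not given in the sources used. Of the gene columns, 24393 were in both tables, and a gene missing from 1 table was taken as 0 there.

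Members were chosen as the report states, with Python 3.11.15, numpy 2.4.6, scipy 1.17.1 and pandas 2.3.3, and doublets were called with Scrublet in scanpy 1.11.5 but kept. UMIs were summed over members and divided by their total and multiplied by 1000000 (CPM). Shares have exact Clopper-Pearson intervals, CPM exact Poisson intervals and ratios exact conditional intervals, all at 95%. UMIs of 1 cell are not independent draws, so these cover counting error only. With 1 library per group no test was possible. The log2 ratios and the ratio intervals, but not the counts of genes past 1.5-fold, were tested on simulated Poisson counts, in which UMIs are independent draws. Granulocyte-monocyte cells had 50 CP10K or more of Mpo, Elane, Prtn3, Ctsg, S100a8, S100a9 and Lyz2.

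Genes were named by rule. Among genes with at least 50 UMIs and at least 50 CPM in the higher library, the 12 highest and 12 lowest log2 ratios were taken, leaving out genes of the choice, mitochondrial, sex-linked and ribosomal genes and 55 genes with over 25% of their UMIs in 1 cell. To these were added members of the megakaryocyte lists past 1.5-fold, a fixed set of lineage genes, and the highest and lowest gene of each other list. Some genes that the rule names are not reported here. H2-K1, B2m, Vegfa, Ldha, Pgk1 and Bnip3, and genes that describe sets of members, were chosen after their values were seen. Members and all 32 lists were chosen with earlier results of these data known. The ribosomal split and the values without Pf4-negative or eosinophil-gene cells were added after seeing the data. TMM factors came from edgeR 4.0.16 in R 4.3.3, and figures from matplotlib 3.10.9.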

Additional observations from a re-analysis of the deposited data

How the results depend on the processing

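The member share ratio stayed between 0.344 and 0.452 under every alternative run. The high-range share of 40.8% in control became 29.0% with a Pf4 and Itga2b limit of 5 CP10K, 52.2% with a limit of 20 CP10K, 20.2% without ribosomal-poor members and 23.1% when Pf4-negative members were also left out, and that of 36.5% in hypoxia became 23.2% after thinning to 5000 UMIs. The 268 higher and 249 lower genes became 534 and 465 with 1 CPM added, 35 and 59 with 50 CPM, 85 and 121 with at least 200 UMIs per gene, 733 and 610 with the mean CPM of single cells, and 762 and 731 with platelet ranges averaged at equal weight, and thinning gave 171 higher. Of 59 named genes past 1.5-fold, 32 still passed with 50 CPM added, 42 with the mean CPM of single cells, 45 with a limit of 5 CP10K, 49 with equal range weights, 51 without the top cell of each gene and 58 with TMM factors, and after thinning 20 of the 27 that had enough UMIs. Log2 ratios changed sign under at least 1 alternative for 9 of these 59 and for 21 of the 42 other named genes. Among those under 1.5-fold were Ppbp (0.38 to -0.59 with thinning), Cd9 (0.08 to -0.45), Gp5 (0.40 to -0.10) and Tubb1 (0.28 to -0.78), each with the mean of single cells, and Slc18a2 (0.06 to -0.62 with equal range weights). Of those past 1.5-fold the sign changed for Hba-a1 (-0.61) and Mpo (-1.16) at a limit of 5 CP10K, for Thbs1 without ribosomal-poor members (-0.066, also -0.066 without Pf4-negative members), for Cd226 (-0.019), Alox5 (-0.26), Ifit1 (-0.12) and Trp53inp1 (-0.20) with the mean of single cells, for Alox5 (-0.51), Cdkn1a (-0.33), Trp53inp1 (-0.16) and Lat2 (-0.033) with equal range weights, and for the macrophage list (median -0.10) with no UMI minimum. For each of these the cause was not tested. No paired analysis was possible because each group has 1 library, and for the same reason no replicate could be left out. Depth limits the ribosomal-poor cells most, with medians of 4935 and 3047 UMIs.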
